A study of Homo sapiens with 12 samples.

Results

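The 3 libraries labelled as K562/IM cells with lycorine were compared with the 3 libraries of parental K562, 6 of the 12 libraries sequenced in the study, across every gene that passed a filter on low counts. K562 is a human chronic myeloid leukemia line that carries the BCR-ABL fusion kinase. K562/IM is the imatinib-resistant line that the study derived from it by stepwise drug exposure and kept in 5 µM imatinib (IM). K562 controls carried no treatment, and the libraries called here labelled K562/IM+L were labelled as K562/IM with lycorine, an Amaryllidaceae alkaloid, given at 6 µM. K562+L (lycorine in K562) and K562/IM (the resistant line alone), with 3 libraries each, served as references. How long the cells were exposed before RNA was taken is not stated in the sources used here, and nothing states that the libraries of a group came from separate cultures, so that p-values measure the spread between these libraries, which may be technical.

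K562 cells are arrested early on the erythroid path. They make embryonic and fetal globins at a low level and can be driven toward haemoglobin synthesis when BCR-ABL signaling is reduced or when certain drugs are added. BCR-ABL feeds the RAS and ERK cascade, the JAK and STAT5 route and the PI3K and AKT route, whose output can be read from feedback genes such as the Sprouty and DUSP families, from STAT5 targets such as PIM1 and CISH, and from MYC. Erythroid genes are switched on by GATA1 together with TAL1, LMO2, KLF1 and FOG1, while GATA2 and MYB belong to the earlier progenitor state.

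The label of the labelled K562/IM+L libraries is in doubt. Their column carries one group number in the sample labels and the study's own plots give that group another, and the study also treated K562 with imatinib in its other assays. Genes that separate the resistant line from its parent were therefore read in every library, in CPM, counts scaled to a common normalized library size. CD44, an adhesion receptor, was listed at 0 in all K562, K562+L and labelled K562/IM+L libraries and at 151, 149 and 155 CPM in the K562/IM libraries. A count of 0 allows up to 3 counts, which is 0.0287 to 0.042 CPM in these libraries, for counting error only. Low counts clustered near multiples of 4, and if 1 read was recorded as 4 counts the limit is 12 counts, or 0.115 to 0.168 CPM. CALN1 had the same pattern, at 0 in those 9 libraries and 12.6, 10.7 and 14.1 CPM in K562/IM. CD53, a leukocyte tetraspanin, stood at 9.14, 8.94 and 9.13 CPM in K562, 176, 179.7 and 189.8 in K562/IM and 3.94, 3.74 and 3.95 in the labelled libraries. SPI1, the myeloid transcription factor PU.1, was at 2.70, 2.78 and 2.29 CPM in K562, 35.2, 32.96 and 32.99 in K562/IM and 1.81, 2.16 and 1.98 in the labelled libraries. In the other direction ABCG2, a drug efflux pump, was at 21.6, 22.3 and 21.6 CPM in K562, 1.51, 2.31 and 1.73 in K562/IM and 22.6, 20.2 and 21.7 in the labelled libraries. CCND2 (cyclin D2) was at 0.623, 0.448 and 0.298 CPM in K562/IM and 27.9, 26.99 and 29.1 in the labelled libraries. On the log scale the labelled libraries were nearer to K562 than to K562/IM for each of these genes. This is a description and no test, since the genes were named after their values were seen.

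Over a wider set, 105 genes had a mean at least 3 log2 units higher in K562/IM than in both K562 and K562+L and at least 10 CPM in every K562/IM library. The labelled mean was nearer to K562 than to K562/IM for 97 of them, with a median level of 1.30 CPM beside 1.03 in K562 and 30.4 in K562/IM. Of 24 genes lower in K562/IM by the same measure, 23 were nearer to K562, with a median of 24.1 CPM in the labelled libraries, 30.5 in K562 and 1.21 in K562/IM. The 9 exceptions included ALOX5 at 19.2 CPM, between 2.21 in K562 and 36.8 in K562/IM, and AXL at 9.18 CPM, between 1.59 and 31.1. The exception among the 24 was IGF1, at 0.584 CPM in the labelled libraries, 0.183 in K562/IM and 29.6 in K562. These exceptions were named after their values were seen. Across the genes, the labelled libraries had a median Spearman correlation of 0.933 with K562 libraries (9 pairs), 0.913 with K562+L and 0.903 with K562/IM, and 0.987 among themselves, as a description. Whether they hold K562/IM cells with lycorine, as labelled, or K562 cells under another treatment, such as imatinib, cannot be told apart from the files. The grouping was kept as labelled, and every direction below rests on it.

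**Figure D1:**
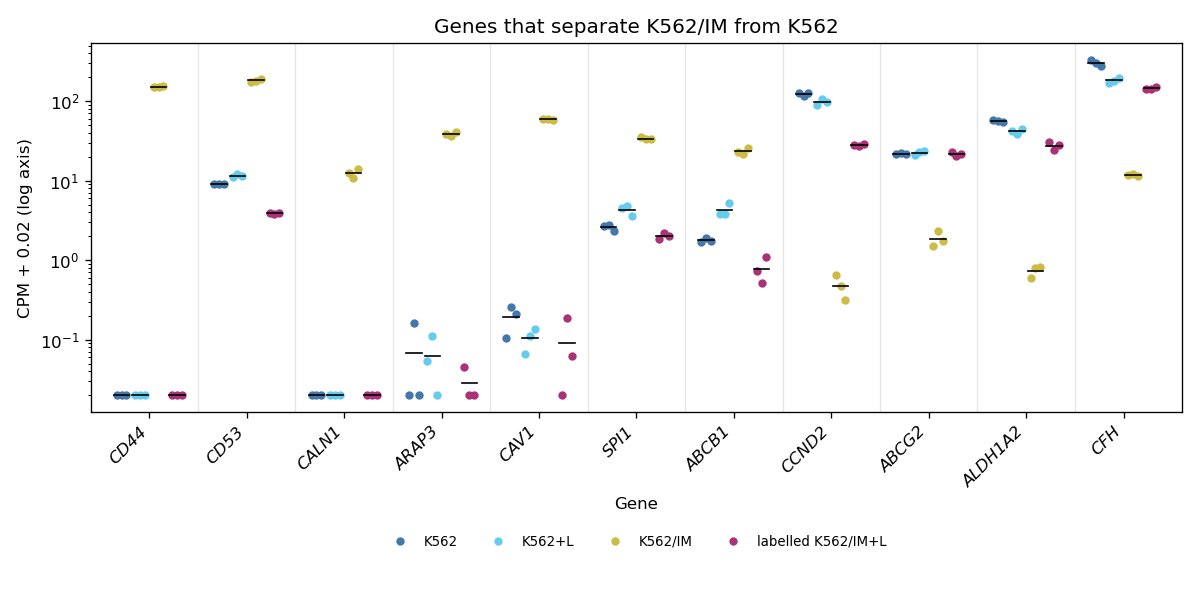
CPM plus 0.02 on a log axis for 11 genes that separate K562/IM from K562, with 1 dot per library, 3 libraries per group, and a black bar at the group mean. The labelled K562/IM+L libraries sit at 0 for CD44 and CALN1 with K562 and K562+L, whereas K562/IM is at 149 CPM or higher for CD44.

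Total counts were 75093844 to 92154227 in the labelled libraries and 82779101 to 87381704 in K562. Globin transcripts took 4.63% ± 0.724 (SD, n = 3) of all counts in the labelled libraries and 0.715% ± 0.117 (SD, n = 3) in K562. Ribosomal protein genes took 11.05% ± 1.47 (SD, n = 3) and 8.54% ± 1.21 (SD, n = 3). Replicate 3 of the labelled group stood somewhat apart from the other 2, with the lowest globin share, at 3.82%.

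Of 13307 genes tested, 3162 (23.8%) were differentially expressed between the labelled libraries and K562, where the adjusted p was under 0.05 and the log2 fold change was beyond 1 in either direction. Of these, 1977 were higher (14.9% of the genes tested) and 1185 lower (8.91%) in the labelled libraries. An adjusted p under 0.05 alone was reached by 3753 genes that were higher (28.2%) and 3693 that were lower (27.8%), and these are called changed below. The median log2 fold change of all genes tested was 0.020. Upper-quartile scaling in place of TMM raised the fold changes by a median of 0.15 and gave 2355 higher and 873 lower, so that 73.0% of the differentially expressed genes were higher in place of 62.5%.

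The 12 higher genes with the smallest p, among genes whose libraries did not overlap (63.6% of all genes tested), held genes of the red cell and of haem synthesis and several genes of the actin cytoskeleton. SLC4A1 encodes band 3, the anion exchanger of the red cell membrane (chromosome 17, 44248385 to 44268141, GRCh38), and stood at 3.61, 4.36 and 5.07 CPM in K562 and 1002, 927 and 1031 in the labelled libraries, a 227-fold difference (log2 fold change 7.80 ± 0.17 SE, edgeR adjusted p = 1.8e-06). SLC25A37 encodes mitoferrin-1, which carries iron into mitochondria, and rose from 59.6, 57.4 and 53.4 CPM to 1294, 1372 and 1342 (log2 fold change 4.53 ± 0.093 SE). ESPN, an actin-bundling protein, stood at 6.04, 8.54 and 7.77 CPM in K562 and 852, 909.5 and 779 in the labelled libraries (log2 fold change 6.81 ± 0.18 SE). Others of this set were FAXDC2 (5.65 ± 0.11 SE on the log2 scale), TNS1 (tensin 1, 5.90 ± 0.13), SCIN (the actin-severing protein scinderin, 3.29 ± 0.089), CCDC88B (4.03 ± 0.12), KIAA1324 (6.43 ± 0.21) and MFSD2B, a sphingosine-1-phosphate exporter of red cells (3.45 ± 0.10). AQP1, ALAD and ALAS2, described with their lists below, completed the set. In bulk RNA, more cells in an erythroid state and more RNA per cell cannot be told apart.

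The 12 lower genes with the smallest p held glucose metabolism, an ETS factor, ribosome assembly and purine synthesis. SLC2A3, the glucose transporter GLUT3, stood at 219, 199 and 199.6 CPM in K562 and 8.63, 7.16 and 8.62 in the labelled libraries (log2 fold change -4.68 ± 0.12 SE, edgeR adjusted p = 3e-06). HK2, a hexokinase, fell from 104, 88.7 and 84.5 CPM to 3.59, 3.28 and 4.38 (log2 fold change -4.64 ± 0.15 SE). ETV4, described with the ERK genes below, and CCND2, LDHA and NOLC1 belonged to this set too. The remaining members were NEFH (neurofilament heavy chain, -2.75 ± 0.085 SE on the log2 scale), TMEM273 (-2.67 ± 0.092), PDE4DIP (-2.90 ± 0.10), APOL4 (-3.69 ± 0.15), TSR1 (a factor of small-subunit maturation, -2.13 ± 0.079) and PFAS (purine synthesis, -2.22 ± 0.085).

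**Figure D2:**
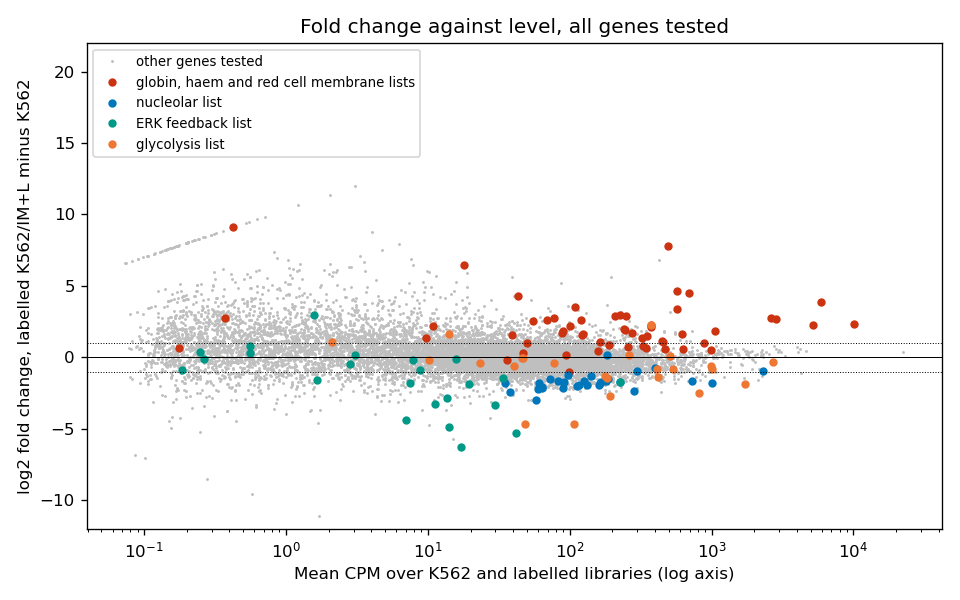
Log2 fold change of the labelled K562/IM+L libraries minus K562 (vertical axis) against the mean CPM over both groups (horizontal log axis) for the 13307 genes tested, with 4 sets of listed genes in color and dotted lines at a log2 fold change of 1 either way. Globin, haem and red cell membrane genes lie mostly above the upper line, and nucleolar genes mostly below the lower line. The sloping line of points at the upper left holds genes at 0 in every K562 library, whose fitted fold change is no bound.

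All 11 genes of the globin list were differentially expressed and higher in the labelled libraries, against 14.9% of all genes tested, with a median log2 fold change of 2.66. HBZ, embryonic alpha-like globin, stood at 566, 785 and 929 CPM in K562 and 11953, 13264 and 8235 in the labelled libraries (log2 fold change 3.86 ± 0.26 SE, edgeR adjusted p = 3.34e-05). HBE1, embryonic beta-like globin, rose from 79.9, 96.9 and 116 CPM to 1095, 1168 and 844 (log2 fold change 3.39 ± 0.19 SE). The fetal gene HBG2 rose from 2633, 3444 and 3904 CPM to 17733, 19364 and 13990.0 (log2 fold change 2.33 ± 0.19 SE), and its neighbour HBG1 had a log2 fold change of 2.25 ± 0.21 SE. Reads of HBG1 and HBG2, and of HBA1 and HBA2, may be split between near-identical copies, so that the split within each pair is uncertain. HBA1 and HBA2, the adult alpha globins, had log2 fold changes of 2.66 ± 0.19 SE and 2.73 ± 0.18 SE. AHSP, which stabilises free alpha globin, stood at 14.9, 16.2 and 21.4 CPM in K562 and 227, 222 and 156 in the labelled libraries (log2 fold change 3.51 ± 0.21 SE). HBM, an alpha-like globin, was at 0 counts in every K562 library and at 91, 69 and 42 counts in the labelled libraries, at least 23.0-fold higher against a floor of 3 counts per library, or at least 5.76-fold against one of 12 counts. Per kilobase of exon, HBG2 was the most abundant of the named globins in both groups, at 3829 CPM per kb in K562 and 19596 in the labelled libraries, and HBZ went from 1006 to 14769. In the labelled group replicate 3 had the lowest level of each globin whose libraries are given, and it still lay above every K562 library.

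Of 14 genes for haem synthesis and its transporters, 13 changed and were higher, 10 of them differentially expressed, and none fell (median log2 fold change 1.59, against 0.020 over all genes). Among all genes tested, 28.2% changed upward and 14.9% were differentially expressed and higher. ALAS2, the erythroid enzyme of the first step of haem synthesis (chromosome X, 55009055 to 55031064, GRCh38), stood at 37.6, 45.2 and 47.9 CPM in K562 and 1157, 1174 and 962 in the labelled libraries, 25.2-fold higher (log2 fold change 4.63 ± 0.15 SE, edgeR adjusted p = 6.28e-06). ALAS1, which catalyses the same step in other tissues, was at 38.9, 36.9 and 39.4 CPM and 32.7, 37.9 and 32.7 (log2 fold change -0.18 ± 0.098 SE, edgeR adjusted p = 0.16). ALAD, the second enzyme of the path, rose from 33.3, 32.4 and 34.1 CPM to 206, 204 and 208, and FECH, which inserts iron, rose from 101, 104 and 96.6 CPM to 374, 381 and 408. Of 13 iron uptake, storage and export genes tested, 5 changed upward and 1 downward, beside 28.2% and 27.8% of all genes (median 0.24). Only 2 were differentially expressed, both higher (15.4%, under the 23.8% of all genes). TFR2, the second transferrin receptor, rose from 152, 159 and 168 CPM to 524, 555 and 511 (log2 fold change 1.71 ± 0.086 SE), and NCOA4, the receptor for ferritin turnover, had a log2 fold change of 1.79 ± 0.20 SE. TFRC, the main transferrin receptor, was at 865, 743 and 647 CPM in K562 and 873, 832 and 1107 in the labelled libraries, which overlapped (log2 fold change 0.30 ± 0.15 SE, edgeR adjusted p = 0.123).

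Of 31 red cell membrane and blood group genes tested, 21 were differentially expressed and higher and none lower, against 14.9% and 8.91% of all genes. The median log2 fold change was 1.64. EPB42, protein 4.2 of the membrane skeleton, stood at 0.196, 0.334 and 0.656 CPM in K562 and 35.3, 36.9 and 34.6 in the labelled libraries (log2 fold change 6.47 ± 0.37 SE, edgeR adjusted p = 1.96e-05). AQP1, the red cell water channel, rose from 3.95, 3.77 and 4.60 CPM to 84.9, 84.5 and 75.8, and KEL, the Kell antigen, from 55.05, 55.8 and 62.5 to 444, 462 and 427. SLC2A1, the glucose transporter GLUT1 of red cells, had a log2 fold change of 2.25 ± 0.088 SE. Without replicate 3 of the labelled group, 22 members of this list were higher, so that the count did not rest on that library.

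Among 24 late erythroid enzymes and organelle clearance genes tested, 19 changed upward and 2 downward, with 13 differentially expressed, all higher (median 1.27). The shares of all genes were 28.2% changed upward, 27.8% downward, and 14.9% differentially expressed and higher. CA1, carbonic anhydrase 1, stood at 38.7, 50.6 and 48.9 CPM in K562 and 411, 439.6 and 394 in the labelled libraries. PKLR, the red cell pyruvate kinase, rose from 69.8, 78.3 and 82.7 CPM to 462, 453 and 428, and BPGM, which makes 2,3-bisphosphoglycerate, had a log2 fold change of 1.91 ± 0.090 SE. EPOR, the erythropoietin receptor, was at 24.9, 29.2 and 32.00 CPM in K562 and 141, 148 and 131 in the labelled libraries (log2 fold change 2.27 ± 0.12 SE, edgeR adjusted p = 1.38e-05). These 3 enzymes and the receptor were higher in each labelled library than in any K562 library.

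Of 17 erythroid transcription factor genes tested, 10 changed upward and none downward, beside 28.2% and 27.8% of all genes (median 0.61). Of the 17, 6 were differentially expressed, all higher (35.3%, beside 14.9% of all genes). KLF1, the erythroid Kruppel-like factor, stood at 109.8, 153 and 153 CPM in K562 and 365, 379 and 293 in the labelled libraries (log2 fold change 1.30 ± 0.17 SE). GFI1B, a zinc finger repressor, had a log2 fold change of 1.52 ± 0.15 SE, LMO2, the bridging subunit of the GATA1 and TAL1 complex, one of 1.35 ± 0.12 SE, and ZFPM1, which encodes FOG1, one of 1.42 ± 0.10 SE. GATA1 itself was at 189, 236 and 263 CPM in K562 and 262, 276 and 213 in the labelled libraries, which overlapped (log2 fold change 0.10 ± 0.16 SE, edgeR adjusted p = 0.597). MYB, the progenitor factor that keeps cells dividing, fell from 192, 174 and 152 CPM to 24.6, 25.7 and 28.4 (log2 fold change -2.74 ± 0.12 SE, edgeR adjusted p = 8.53e-06). GATA2 was at 54.4, 149.8 and 143 CPM and 44.9, 44.7 and 19.96 (log2 fold change -1.68 ± 0.45 SE, edgeR adjusted p = 0.016), a call lost without K562 replicate 2 (log2 fold change -1.46, edgeR adjusted p = 0.0519). MECOM (EVI1, -2.60 ± 0.24 SE on the log2 scale) and HHEX (-1.56 ± 0.091) were lower as well, and RUNX1 had a log2 fold change of -0.24 ± 0.087 SE. These belong to a list of stem, progenitor and myeloid factors, of which 16 were tested, 4 were differentially expressed and lower and 1 higher, and 8 did not pass the test in either direction (median -0.22). The share differentially expressed was 31.2%, beside 23.8% of all genes, where 8.91% were lower and 14.9% higher. The higher member was KLF2, a Kruppel-like factor, at 0.331, 0.238 and 0.437 CPM in K562 and 1.44, 1.05 and 0.681 in the labelled libraries (log2 fold change 1.63 ± 0.43 SE, edgeR adjusted p = 0.0151), a call lost with the replicate block, without K562 replicate 2 and without labelled replicate 1 (edgeR adjusted p = 0.0617, 0.0507 and 0.0687).

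**Figure D3:**
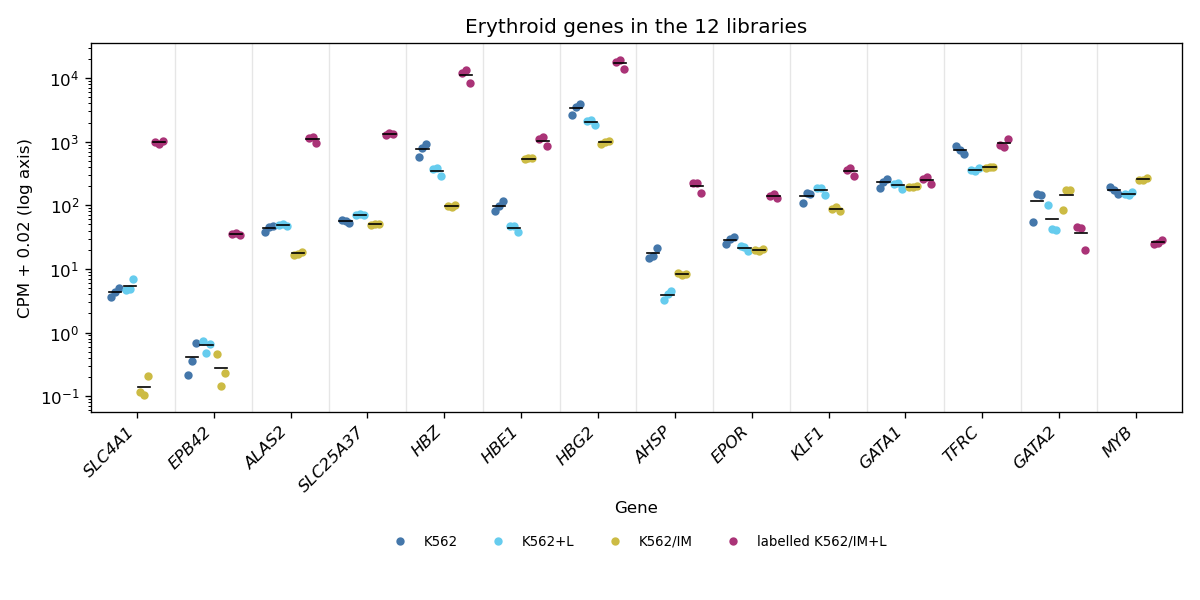
CPM plus 0.02 on a log axis for 14 erythroid and progenitor genes, with 1 dot per library, 3 libraries per group, and a black bar at the group mean. From SLC4A1 to KLF1 every labelled K562/IM+L library lies above every K562 library, GATA1 and TFRC overlap, and GATA2 and MYB lie lower.

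Promoter sequences are shown for ALAS2, EPB42, KLF1 and EPOR because they illustrate the letters that GATA factors recognise, in genes that rose together.
Each is the 250 bases before the transcript start in RefSeq (GRCh38.p14), in the gene's direction, and capitals mark AGATAA or TGATAA on either strand.
ALAS2 (chrX:55030978-55031227, minus strand): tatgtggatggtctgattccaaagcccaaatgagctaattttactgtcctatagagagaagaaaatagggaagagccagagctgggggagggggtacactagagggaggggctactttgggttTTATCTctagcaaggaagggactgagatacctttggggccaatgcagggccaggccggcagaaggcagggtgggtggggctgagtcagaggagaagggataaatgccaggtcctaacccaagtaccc
EPB42 (chr15:43221019-43221268, minus strand): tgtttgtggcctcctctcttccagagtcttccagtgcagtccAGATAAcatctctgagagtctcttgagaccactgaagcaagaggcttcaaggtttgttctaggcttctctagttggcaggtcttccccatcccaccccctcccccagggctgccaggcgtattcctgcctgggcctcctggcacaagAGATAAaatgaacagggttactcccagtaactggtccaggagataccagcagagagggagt
KLF1 (chr19:12887202-12887451, minus strand): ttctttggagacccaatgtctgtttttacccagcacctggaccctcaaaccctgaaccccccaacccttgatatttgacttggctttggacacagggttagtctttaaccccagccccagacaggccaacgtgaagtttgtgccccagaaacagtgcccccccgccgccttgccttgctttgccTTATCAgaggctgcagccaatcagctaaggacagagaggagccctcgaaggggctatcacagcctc
EPOR (chr19:11384315-11384564, minus strand): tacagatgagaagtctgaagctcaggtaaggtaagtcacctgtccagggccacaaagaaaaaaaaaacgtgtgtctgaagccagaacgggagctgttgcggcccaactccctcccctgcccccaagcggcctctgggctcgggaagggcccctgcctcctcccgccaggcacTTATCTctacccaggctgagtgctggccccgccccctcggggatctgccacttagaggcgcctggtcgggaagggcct

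The match lay 127 bases before the start in ALAS2, 208 and 61 in EPB42, 66 in KLF1 and 78 in EPOR. Of the 61 genes of the 5 erythroid lists (globin, haem, membrane, enzymes and factors) that were differentially expressed and higher, 39 had a promoter in the table, and 14 of these (35.9%) held AGATAA or TGATAA. Over all members of these lists that were tested, called or not, it was 19 of 70 (27.1%). The share was 7.96% of the 10627 promoters of genes tested and 14.9% of all 27305 promoters of this length. It was 11.2% for all genes higher in the labelled libraries and 7.40% for those lower. The letters CCNCNCCC, bound by Kruppel-like factors, were found in 26 of the 39 (66.7%) and in 70.8% of the promoters of genes tested. The 2 motifs share no position by definition, a match is a description of letters and not a site, and no test was made.

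Megakaryocyte genes were examined because K562 can also take that path. Of 17 megakaryocyte and platelet genes tested, 7 were differentially expressed and higher and 2 lower (52.9%, beside 23.8% of all genes). Over all genes 14.9% were higher and 8.91% lower. Without labelled replicate 2, 4 members of the list were higher and 1 lower. TUBB1, the platelet beta-tubulin, rose from 5.67, 3.92 and 4.06 CPM to 174, 146 and 192 (log2 fold change 5.20 ± 0.20 SE), ITGA2B (CD41) from 5.35, 4.35 and 4.78 to 18.1, 19.6 and 16.6, and ITGB3 (CD61) from 0.589, 0.441 and 0.257 to 3.11, 2.72 and 5.76. THBS1, thrombospondin 1, fell from 12.5, 12.8 and 11.1 CPM to 0.996, 1.90 and 1.80. ITGA2B remained far under the 184, 179 and 195 CPM of K562/IM. Summed over ITGA2B, ITGB3, GP9 and PF4, the level was 21.2 to 22.6 CPM in the labelled libraries, 4.79 to 5.94 in K562 and 189 to 208 in K562/IM. The 7 myeloid markers MPO, ELANE, CSF3R, CD14, ITGAM, LYZ and SPI1 summed to 78.0 to 83.2 CPM, below the 112 to 117 of K562, a sum in which members went both ways. Of 17 leukocyte and mast cell markers tested, 4 were differentially expressed and higher (AZU1, CSF1R, CSF3R and ITGAM) and 2 lower (CD33 and CD53). The share was 35.3%, beside 23.8% of all genes, and the median log2 fold change was -0.35. CSF3R, the G-CSF receptor, was at 0, 0.0954 and 0.103 CPM in K562 and 0.970, 0.448 and 0.393 in the labelled libraries, and AZU1, a granule protein, at 0.344, 0.751 and 0.682 and 4.23, 5.38 and 2.88, so that the higher members stayed low in level. The count of 4 higher was 2 with the replicate block, without K562 replicate 2 or without labelled replicate 1, and 6 under upper-quartile scaling. The call of ITGAM was lost whichever library was left out (edgeR adjusted p = 0.0539 to 0.142). The 4 mast cell markers FCER1A, MS4A2, CPA3 and HDC summed to 1.70 to 2.05 CPM in the labelled libraries and 1.47 to 2.39 in K562, which overlapped, and FCER1A and CPA3 were at 0 in all 12 libraries.

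Of 12 BCR, ABL and SRC family kinase genes tested, which stand at the head of the pathway, 2 were differentially expressed and higher and 2 lower (33.3%, beside 23.8% of all genes), with a median of 0.066. BCR was at 127, 77.3 and 72.4 CPM in K562 and 75.8, 62.2 and 145 in the labelled libraries, and ABL1 at 297, 276 and 266 and 319.9, 314 and 351. Neither passed the test (edgeR adjusted p = 0.996 and 0.0722), and gene counts do not separate the fusion transcript from the normal ones. LYN, a SRC family kinase, fell from 133, 117 and 108 CPM to 43.3, 47.7 and 51.1 (log2 fold change -1.35 ± 0.11 SE), and YES1 had a log2 fold change of -1.21 ± 0.14 SE. FYN rose, with a log2 fold change of 1.20 ± 0.20 SE. In the RAS and MAP kinase cascade 4 of 26 genes changed upward and 8 downward (median -0.18), beside 28.2% and 27.8% of all genes. Of these, 1 was differentially expressed in each direction, and 3 were lower without labelled replicate 3. The 8 that changed downward were 5 without labelled replicate 1 or under upper-quartile scaling, and 4 with the replicate block.

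Of 23 genes of the ERK feedback and output list, 12 were differentially expressed and lower, against 8.91% of all genes, and 1 was higher (median log2 fold change -1.46). The 3 PEA3 ETS factors, which are induced by ERK, had the largest decreases. ETV5 stood at 35.1, 33.5 and 33.01 CPM in K562 and 0.504, 0.644 and 0.181 in the labelled libraries (log2 fold change -6.30 ± 0.40 SE, edgeR adjusted p = 2.54e-05). ETV4 (chromosome 17, 43527844 to 43579620, GRCh38) fell from 70.5, 84.1 and 88.8 CPM to 1.95, 2.28 and 2.13 (log2 fold change -5.28 ± 0.14 SE), and ETV1 had a log2 fold change of -4.86 ± 0.22 SE. SPRY4, a Sprouty feedback inhibitor, fell from 15.4, 11.7 and 13.2 CPM to 0.706, 0.714 and 0.510 (log2 fold change -4.41 ± 0.21 SE), whereas SPRY2 went from 11.1, 12.4 and 10.9 to 6.59, 5.91 and 6.20 and did not pass the fold threshold (log2 fold change -0.91 ± 0.12 SE). CCND1, cyclin D1, fell from 21.96, 20.99 and 18.3 CPM to 2.23, 2.42 and 1.90, EGR1 from 387, 330.3 and 319.7 to 156, 82.6 and 74.5 and FOSL1 from 27.03, 31.6 and 33.3 to 8.78, 8.94 and 7.60. DUSP6, the ERK phosphatase, was under 0.5 CPM in every library of both groups so that a difference was not detectable at this depth (edgeR adjusted p = 0.527). PHLDA1 was at 3.12, 3.52 and 3.24 CPM in K562, 2.50, 2.38 and 2.34 in the labelled libraries and 52.9, 53.1 and 49.05 in K562/IM. SPRED3, a RAS inhibitor of the Sprouty-related family, was the member that rose, from 0.442, 0.322 and 0.283 CPM to 2.91, 2.09 and 3.38.

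The STAT5 targets showed decreases of several well-known members with increases of 2. Of 13 genes, 5 were differentially expressed and lower and 2 higher (median -0.54). The share was 53.8%, beside 23.8% of all genes, where 8.91% were lower and 14.9% higher. PIM1, a survival kinase, stood at 471, 485 and 495 CPM in K562 and 145, 71.8 and 124 in the labelled libraries (log2 fold change -2.11 ± 0.24 SE, edgeR adjusted p = 0.000321). Its relative PIM2 fell from 148, 167 and 173 CPM to 25.5, 22.7 and 21.1 (log2 fold change -2.84 ± 0.12 SE). The feedback inhibitors of cytokine signaling CISH and SOCS2 fell from 54.2, 63.9 and 68.00 CPM to 13.1, 11.8 and 12.3 and from 220.5, 223 and 216 to 50.9, 55.7 and 53.7, and CCND2 fell from 128, 117 and 126 to 27.9, 26.99 and 29.1. SOCS1, of the same family, rose from 1.56, 2.30 and 2.15 CPM to 6.70, 6.89 and 4.92. OSM, the cytokine oncostatin M, was at 0 counts in every K562 library and at 17, 53 and 76 counts in the labelled libraries, at least 15.9-fold higher against the floor of 3 counts per library, or at least 3.97-fold against one of 12 counts. The list thus went both ways, and the genes that fell had a higher CPM in K562 than those that rose. Of 24 JAK, STAT and cytokine receptor genes tested, 5 were differentially expressed and higher and 2 lower (29.2%, beside 23.8% of all genes). Over all genes 14.9% were higher and 8.91% lower. The count of 5 was 2 with the replicate block or without labelled replicate 1, and 3 without K562 replicate 2 or labelled replicate 2. IL4R was lower, with a log2 fold change of -2.47 ± 0.26 SE, and KIT, the stem cell factor receptor, was at 2.96, 3.004 and 1.48 CPM and 1.58, 1.23 and 2.09, which overlapped (edgeR adjusted p = 0.154).

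**Figure D4:**
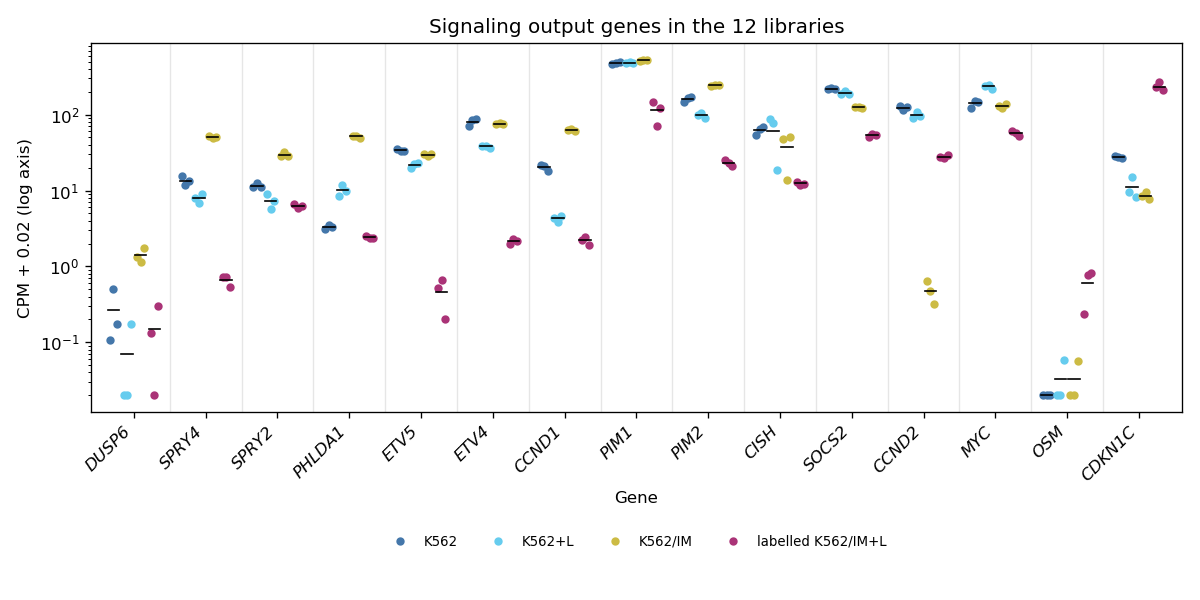
CPM plus 0.02 on a log axis for 15 genes of ERK, STAT5, MYC and cell cycle control, with 1 dot per library, 3 libraries per group, and a black bar at the group mean. SPRY4, ETV5, ETV4, CCND1, PIM1, PIM2, CISH, SOCS2 and MYC lie lower in the labelled K562/IM+L libraries than in K562, and CDKN1C and OSM lie higher.

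Immediate early genes overlap with the ERK list in EGR1 and FOSL1, but their median was above 0. Of 28 tested, 7 were differentially expressed and higher and 2 lower (median 0.36), or 32.1% beside 23.8% of all genes. Over all genes 14.9% were higher and 8.91% lower. The median was 0.14 without labelled replicate 1. JUN, an AP-1 subunit, rose from 31.3, 30.4 and 26.8 CPM to 198, 155 and 148 (log2 fold change 2.48 ± 0.14 SE), and the antiproliferative gene BTG2 from 15.6, 13.8 and 15.7 to 211, 169 and 162 (log2 fold change 3.57 ± 0.14 SE). PPP1R15A, the stress phosphatase subunit GADD34, rose from 90.5, 84.96 and 101 CPM to 453, 398 and 335, and DUSP8, a JNK phosphatase, from 0.908, 0.525 and 0.553 to 4.52, 4.06 and 3.99. K562+L had 27.97, 28.1 and 25.1 CPM of DUSP8 and 319, 310.4 and 282 CPM of JUN, above the labelled libraries for both genes.

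Of 26 PI3K, AKT and mTOR genes tested, 3 were differentially expressed and higher and 1 lower (15.4%, beside 23.8% of all genes), with a median of -0.077, and 1 was higher where at least 10 counts were required in every library. PIK3CB, a catalytic subunit, fell with a log2 fold change of -1.34 ± 0.22 SE, and PIK3R2, a regulatory subunit, rose by 1.19 ± 0.090 SE on the log2 scale. DEPTOR, an mTOR inhibitor, stood at 0.147, 0.0477 and 0 CPM in K562 and 1.74, 1.95 and 1.61 in the labelled libraries. Of 18 FOXO targets, the genes that FOXO factors switch on when AKT is low, 14 changed upward and 1 downward, with 7 differentially expressed (median 0.94). Among all genes tested, 28.2% changed upward and 27.8% downward, and 14.9% were differentially expressed and higher. In K562/IM, 12 FOXO targets changed upward against K562 (30.1% of all genes did) and 2 downward (median 0.59). In K562+L, 4 changed upward (18.2% of all genes did) and 7 downward (19%). INSR, the insulin receptor, rose from 0.393, 0.155 and 0.154 CPM to 6.31, 7.61 and 7.70 (log2 fold change 4.91 ± 0.38 SE), and SESN3, sestrin 3, from 0.663, 0.632 and 0.270 to 3.88, 3.40 and 5.40. PIK3IP1, a PI3K inhibitor, had a log2 fold change of 1.69 ± 0.18 SE and CCNG2 one of 1.10 ± 0.16 SE. CDKN1B, the inhibitor p27, changed by 0.53 ± 0.085 SE on the log2 scale, under the fold threshold, and BCL2L11 (BIM) by 0.47 ± 0.11 SE.

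MYC fell from 123, 152 and 149 CPM to 61.7, 57.3 and 51.5 (log2 fold change -1.33 ± 0.12 SE, edgeR adjusted p = 0.000106). Of the MXD genes, whose products compete with MYC for MAX, MXD4 rose from 10.98, 13.9 and 15.7 CPM to 136, 139 and 122 (log2 fold change 3.27 ± 0.15 SE) and MXD3 from 11.3, 12.6 and 16.9 to 40.9, 46.5 and 32.6, while MXD1 changed by 0.57 ± 0.14 SE on the log2 scale. MLXIPL, the glucose-sensing relative ChREBP, had a log2 fold change of 2.02 ± 0.14 SE. Nucleolar and ribosome assembly genes had the highest share of lower members among the 29 lists, with 29 of 30 changed downward, 26 of them differentially expressed, and none upward (median -1.76). Among all genes tested, 27.8% changed downward and 8.91% were differentially expressed and lower. NOLC1 stood at 477, 471 and 466 CPM in K562 and 97.1, 85.9 and 97.8 in the labelled libraries (log2 fold change -2.35 ± 0.087 SE, edgeR adjusted p = 7.93e-06). NCL, nucleolin, fell from 1537, 1568 and 1562 CPM to 459, 439.7 and 436, GNL3, nucleostemin, from 256, 251 and 249 to 67.1, 67.7 and 69.00, and UTP15, of the small-subunit processome, from 103, 103 and 87.7 to 21.9, 20.2 and 22.03. In 21 promoters of the 26 genes, CACGTG, the E-box bound by MYC and MAX, was present in 3 (14.3%). The share was 8.81% for the promoters of genes tested and 11.8% for those of all differentially expressed genes that were lower, and no test was made. The share of counts in ribosomal protein genes was 9.36% to 12% in the labelled libraries and 7.45% to 9.84% in K562, which overlapped.

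Of 31 DNA replication and S phase genes, 27 changed downward and none upward, and 12 were differentially expressed (median -0.82), with 8 under upper-quartile scaling. Among all genes tested, 27.8% changed downward and 28.2% upward, and 8.91% were differentially expressed and lower. MCM10, a replication initiation factor, fell from 129, 115 and 110.0 CPM to 33.9, 32.5 and 40.7 (log2 fold change -1.75 ± 0.11 SE), POLE from 313, 307 and 285 to 99.2, 94.8 and 116, RRM2, of ribonucleotide reductase, from 476, 471 and 431 to 187, 185 and 188, and UHRF1 from 87.8, 94.1 and 86.5 to 34.6, 34.2 and 34.7. Mitotic genes moved less, with 13 of 26 changed downward and 2 upward (median -0.35). The share differentially expressed was 15.4%, under the 23.8% of all genes. The 4 that passed the fold threshold, CDK1, CCNA2, KIF11 and BUB1B, lay just beyond it, and none of them passed under upper-quartile scaling. Without K562 replicate 1 or labelled replicate 1 only 1 passed, and 2 passed without labelled replicate 2. MKI67, the proliferation marker, was at 478, 353 and 325 CPM in K562 and 227, 208 and 337 in the labelled libraries, which overlapped (log2 fold change -0.61 ± 0.22 SE, edgeR adjusted p = 0.0451). CDKN1C, the inhibitor p57, rose from 28.2, 27.4 and 26.8 CPM to 229, 266 and 209 (log2 fold change 3.07 ± 0.12 SE, edgeR adjusted p = 7.96e-06). CCND3, the D cyclin of erythroid cells, stood at 343, 401 and 419.8 CPM in K562 and 620.5, 646 and 538 in the labelled libraries, so that of the D cyclins CCND1 and CCND2 fell and CCND3 changed upward under the fold threshold.

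Genes for glycolysis and glucose uptake were mostly lower, with 15 of 24 changed downward and 3 upward, of which 8 and 3 were differentially expressed (median -0.60). The share differentially expressed was 45.8%, beside 23.8% of all genes, where 8.91% were lower and 14.9% higher. LDHA, lactate dehydrogenase A, fell from 1361, 1373 and 1456 CPM to 242, 265 and 229 (log2 fold change -2.53 ± 0.094 SE), and PKM, the pyruvate kinase of dividing cells, from 294, 328 and 374 to 53.7, 53.6 and 46.00 (log2 fold change -2.72 ± 0.13 SE). Of the glucose transporters and pyruvate kinases, SLC2A3 and PKM were lower, while SLC2A1 and PKLR, the forms used by red cells, were higher. In the integrated stress response 12 of 23 genes changed downward and 4 upward (median -0.28), beside 27.8% and 28.2% of all genes. The 12 that changed downward were 8 with the replicate block or under upper-quartile scaling. They were also 8 without K562 replicate 1, K562 replicate 2 or labelled replicate 1. PSAT1 and SLC7A5, targets of ATF4, fell from 187, 175 and 173 CPM to 46.4, 49.6 and 51.4 and from 284, 304 and 294 to 109, 108 and 111. ASNS changed by -0.30 ± 0.087 SE on the log2 scale, and it was at 82.8, 88.1 and 73.9 CPM in K562+L. DDIT4 and CHAC1 rose, with log2 fold changes of 1.63 ± 0.092 SE and 1.45 ± 0.17 SE.

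Of 41 autophagy genes tested, a process that the study examined in other assays, 4 were differentially expressed and higher and 1 lower (12.2%, beside 23.8% of all genes), and 16 changed upward and 9 downward (median 0.22). The count of 4 was 8 under upper-quartile scaling and 2 without K562 replicate 3, and the 1 lower was 0 under upper-quartile scaling, without K562 replicate 2 and without labelled replicate 3. ULK1, the initiating kinase, rose from 30.1, 32.1 and 33.4 CPM to 123, 126 and 117 (log2 fold change 1.91 ± 0.086 SE), and OPTN, an adaptor for damaged mitochondria, from 79.7, 81.8 and 85.8 to 286, 288 and 261. SQSTM1, which encodes p62, stood at 119.7, 134 and 144 CPM in K562, 256, 252 and 215 in the labelled libraries and 313, 319.8 and 298 in K562+L. It changed upward under the fold threshold (log2 fold change 0.84 ± 0.11 SE, edgeR adjusted p = 0.000732).

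Of 15 BCL2 family genes tested, 2 were differentially expressed and higher and 2 lower (26.7%, beside 23.8% of all genes), and pro-apoptotic members were found on both sides. BCL2, a survival member, fell from 7.83, 5.79 and 5.83 CPM to 1.84, 2.96 and 1.97 and BMF, a pro-apoptotic member, rose from 1.15, 1.13 and 1.05 to 6.64, 6.92 and 7.997. BAK1, a pro-apoptotic pore former, fell from 28.9, 34.5 and 34.8 CPM to 17.6, 16.5 and 14.8 (log2 fold change -1.03 ± 0.12 SE), under the fold threshold without K562 replicate 2 or 3 or labelled replicate 3 and under upper-quartile scaling. BCL2L1 and MCL1, survival members too, changed downward under the fold threshold (-0.67 ± 0.099 SE and -0.49 ± 0.10 SE on the log2 scale). BBC3, which encodes PUMA, was at 5.69, 17.9 and 7.69 CPM in K562 and 53.5, 17.5 and 40.2 in the labelled libraries, which overlapped, and its call (edgeR adjusted p = 0.0227) was lost with the replicate block, where the edgeR adjusted p was 0.0749, and without K562 replicate 1 or 3 or labelled replicate 1, at an edgeR adjusted p of 0.0567 to 0.0752.

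**Figure D5:**
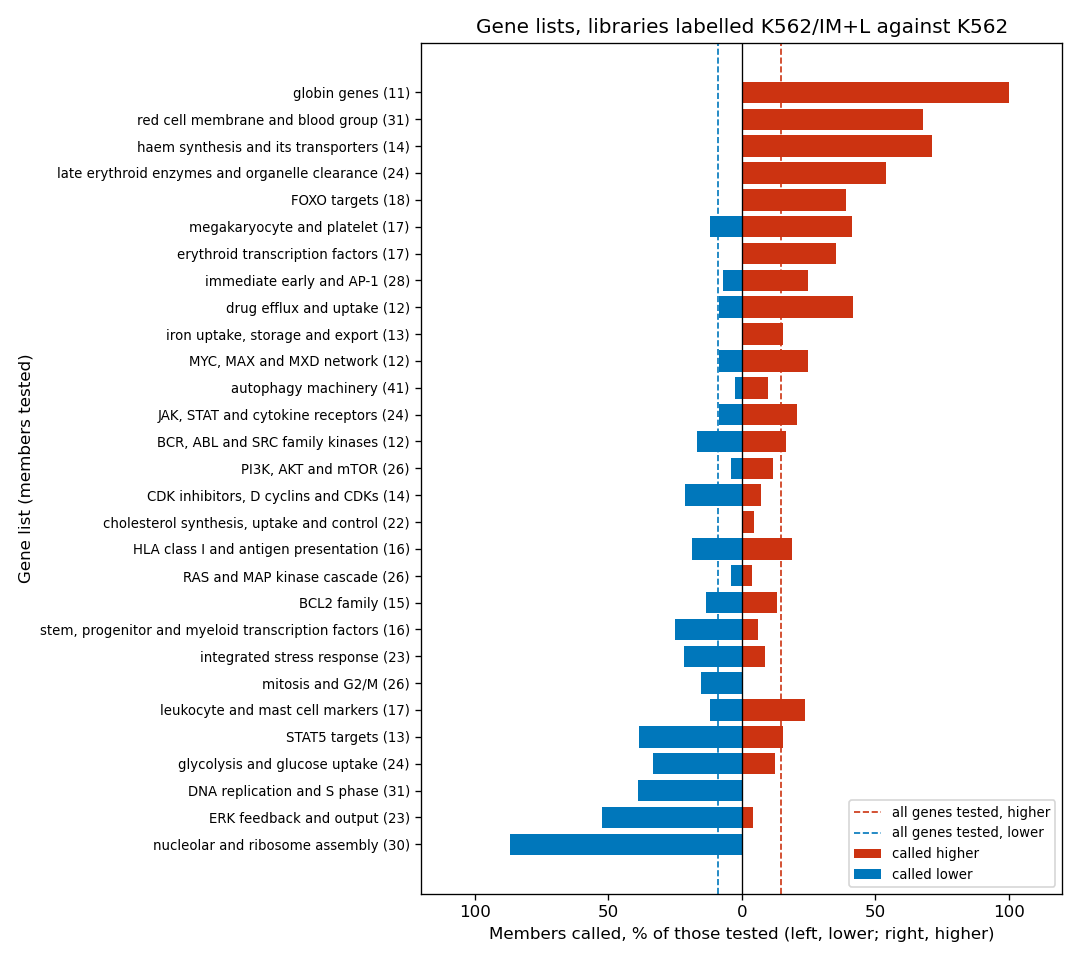
Share of the tested members of 29 gene lists that were differentially expressed, with higher genes drawn to the right and lower genes to the left, ordered by median log2 fold change, and dashed lines at the share over all 13307 genes tested. The globin list reaches 100% to the right, and the nucleolar list 86.7% to the left.

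The labelled libraries were then set beside K562+L and K562/IM in a fit of all 12 libraries. Against K562+L, 4251 of 13995 genes (30.4%) were differentially expressed, 2661 higher and 1590 lower. Against K562/IM the count was 3844 (27.5%), with 1943 higher and 1901 lower. If the label holds, the comparison with K562/IM reads lycorine in the resistant line. Without replicate 3 of the labelled group these counts were 4484 and 4121. All 11 globin genes changed upward in the labelled libraries against K562+L, where 35% of all genes did, and all 11 against K562/IM, where 30.8% did. K562+L and K562/IM themselves were lower than K562 for most globins, at 10 of 11 genes changed downward in K562+L (19% of all genes) and 9 in K562/IM (27.1%), with median log2 fold changes of -0.99 and -1.62. These values share the K562 libraries with the main comparison and are given side by side only. SLC4A1 was at 4.69, 4.80 and 6.87 CPM in K562+L and 0.0958, 0.0833 and 0.186 in K562/IM, and ALAS2 at 48.7, 50.9 and 46.8 and 16.8, 17.2 and 18.5, so that the labelled libraries exceeded both groups as they exceeded K562. HBE1 was the exception in size, at 538, 547 and 546 CPM in K562/IM, a level between K562 and the labelled libraries (log2 fold change 0.93 ± 0.14 SE against K562/IM, edgeR adjusted p = 0.000143).

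Of the 30 nucleolar genes, 28 changed downward against K562+L (31.6% of all genes did) and 27 against K562/IM (33.3%). In K562+L, 17 of these genes changed upward against K562 (18.2% of all genes did) and 1 downward. In K562/IM all 30 changed downward against K562 (27.1% of all genes did), with a median log2 fold change of -0.74. Of the 23 ERK output genes tested, 13 changed downward against K562+L (31.6% of all genes did) and 18 against K562/IM (33.3%). In K562+L itself 9 of them changed downward against K562 (19% of all genes did) and 2 upward (median -0.64). CCND1 was at 4.38, 3.85 and 4.55 CPM in K562+L. In K562/IM 14 of the ERK output genes changed upward against K562 (30.1% of all genes did) and 2 downward (median 0.69). ETV4 had log2 fold changes of -4.16 ± 0.10 SE against K562+L and -5.16 ± 0.11 SE against K562/IM, and SPRY4 of -3.63 ± 0.16 SE and -6.30 ± 0.18 SE. MYC was at 239, 247 and 221 CPM in K562+L, above K562, and at 129.7, 122 and 136 in K562/IM, so that the labelled libraries were the lowest of the 4 groups. GABRE, a GABA receptor subunit, stood at 57.4, 51.1 and 56.2 CPM in K562, 7.04, 7.11 and 7.31 in K562+L, 286, 288 and 291 in K562/IM and 18.00, 20.2 and 18.2 in the labelled libraries, and it was lower than K562 in both groups labelled with lycorine. For JUN, every library of the other 3 groups lay above every K562 library.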

How the data were processed

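Messenger RNA (polyA library) was sequenced in 12 libraries, 3 per group, and groups follow the treatment and line in the labels. The authors deposited raw counts, not normalized, for 19447 gene symbols in each library. The submitters' notes name hg38, FastQC, STAR, StringTie and DESeq2, and the annotation and strandedness are not given in the sources used here. Of 23289 counts from 1 to 25, 67.9% lay at or 1 above a multiple of 4. For the 6 libraries, low genes were removed (filterByExpr with a minimum count of 10), and the rest was scaled by TMM and fitted with the quasi-likelihood test of edgeR 4.0.16 (R 4.3.3) with Benjamini-Hochberg adjustment, calling genes with an adjusted p under 0.05 and a log2 fold change beyond 1 either way. CPM used TMM over all 12 libraries, and an SE is the absolute log2 fold change divided by the root of F. K562+L and K562/IM were compared in a fit of all 12 libraries. DESeq2 1.42.0, other scalings, filters and libraries left out were alternatives, and the test was checked on simulated counts. Named genes were, for each direction, the 12 non-overlapping called genes that ranked first by p, up to 4 called members per list and direction, and a fixed set of erythroid and signaling genes. Some genes that this rule picks are not reported here. The genes of the label check were added after their values were seen. The comparison, the 29 lists (630 genes) and the named genes were chosen with earlier results of these data known. Positions came from GENCODE release 29 (19029 symbols) and promoters from RefSeq. No group had over 3 libraries, so that outlying libraries were not tested for, and an exact test of 3 against 3 cannot reach a p under 0.1.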

Additional observations from a re-analysis of the deposited data

How the results depend on the processing

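The counts against K562 (3162 genes, 1977 higher and 1185 lower) stayed within 1.5 times of these values with DESeq2, other scalings, other low-count filters, a fit of all 12 libraries, the replicate number as a block, counts divided by 4, and each library left out. Without a fold threshold they were 7446, 3753 and 3693. Leaving out 1 library gave 3013 to 3209 genes, 1826 to 2014 higher and 1152 to 1248 lower. Against K562+L the ranges were 4053 to 4484, 2433 to 2685 and 1524 to 1799, and against K562/IM 3600 to 4121, 1720 to 1988 and 1809 to 2133. The replicate numbers did not pair the samples (correlations of same-numbered deviations of -0.228, 0.0338 and -0.528 with K562), and the replicate block gave 2913 genes against K562, 4161 against K562+L and 3744 against K562/IM. Upper-quartile scaling moved the median of all genes by 0.15, and gave 2355 higher and 873 lower. Of 406 list medians recomputed under 14 settings, 17 moved by more than the replicate spread. Of 2377 values of 171 named genes, 2287 kept the call status of the main fit and none reversed a call. In the others a call was lost. Because low counts cluster near multiples of 4, low genes may carry more counting noise than their counts give.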

Other observations

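Genes for drug transport, antigen presentation and sterol synthesis were measured as well. Of 12 drug efflux and uptake genes tested, 5 were differentially expressed and higher in the labelled K562/IM+L libraries than in K562, and 1 was lower. Together these were 50% of the list, beside 23.8% of all genes, with 14.9% higher and 8.91% lower. ABCC3, an organic anion efflux pump, stood at 2.87, 3.49 and 3.04 CPM in K562 and 13.7, 11.7 and 11.6 in the labelled libraries, and SLC22A4, a carnitine transporter, at 7.18, 6.84 and 5.52 and 25.7, 27.1 and 27.3. SLCO1A2, an organic anion uptake carrier, rose from 15.6, 13.1 and 12.4 CPM to 52.6, 53.9 and 70.6. ABCB1, which encodes P-glycoprotein, was at 1.68, 1.86 and 1.72 CPM in K562, 0.706, 0.490 and 1.06 in the labelled libraries and 22.96, 21.9 and 25.8 in K562/IM. Its lower call against K562 (edgeR adjusted p = 0.0143) was lost without labelled replicate 1 (edgeR adjusted p = 0.0507).

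Of 16 HLA class I and antigen presentation genes tested, 3 were differentially expressed in each direction (37.5%, beside 23.8% of all genes, with 14.9% higher and 8.91% lower). TAPBP, tapasin, rose from 64.4, 69.8 and 69.2 CPM to 237, 246 and 230.2, and NLRC5, the activator of class I genes, was at 0.0982, 0 and 0.103 CPM in K562 and 3.83, 4.03 and 3.92 in the labelled libraries. TAP2, a peptide transporter subunit, fell from 116, 113 and 107 CPM to 33.2, 32.7 and 39.7, and PSMB9, an immunoproteasome subunit, from 10.7, 13.3 and 16.9 to 5.51, 6.54 and 4.35. Of 22 cholesterol genes, only MVD, of sterol synthesis, was differentially expressed against K562 (median log2 fold change of the list -0.094). MVD was under the fold threshold, at log2 fold changes of 0.91 to 0.98, without K562 replicate 1, labelled replicate 1 or labelled replicate 2. Of the list, 13 changed upward against K562+L, where 35% of all genes did, and 11 against K562/IM, where 30.8% did.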
